A study of Mus musculus with 12 samples.

Results

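Interferon-stimulated genes were examined in the livers of ob/ob mice with and without ethionine. The list held 33 genes of the 56205 in the count table, chosen by name with earlier results of these data known. They were 10 genes of the Ifit and Oas families and Isg15 (the type I set), 6 Gbp and immunity-related GTPase genes (the interferon-gamma set), and 17 further interferon-stimulated genes. All 33 had counts and all 33 passed the low-count filter, which kept 13416 genes.

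Interferons are secreted proteins that cells release after their sensors meet foreign or misplaced nucleic acid. Type I interferons act through the Ifnar1 and Ifnar2 receptor chains and a complex that includes Stat2 and Irf9, which binds the interferon-stimulated response element (ISRE). Interferon-gamma, made by T and NK cells, acts through Ifngr1 and Ifngr2 and on genes with a gamma-activated site (GAS). Ifit proteins bind foreign RNA, Oas enzymes switch on RNase L, and Isg15 is a ubiquitin-like tag, whereas Gbp proteins and immunity-related GTPases assemble on the vacuoles of intracellular microbes. Many genes answer to both interferons, so the division into sets is one of degree.

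RNA was taken with Trizol from whole liver and poly(A)-selected, with 1 library per mouse. The OBOB_FLO group was 6 ob/ob mice on standard chow and the OBOB_Fibrotic group was 6 ob/ob mice on the same chow with DL-ethionine, an ethyl analogue of methionine. Throughout, fibrotic is the name of the group in the labels, and fibrosis was not assessed here. The study reported no change of Col1a1 expression with ethionine in ob/ob mice, and describes the model by microvesicular steatosis and inflammation. The labels place 0.165% ethionine in the drinking water for 2 weeks in one field and an injection of 0.15% in another. The study's methods give drinking water, the lower strength and a shorter time, so the length of treatment is uncertain. Every mouse, controls included, lacked leptin and no lean group was used here, so all values describe ethionine on an obese background. Only males were stated. Age was not in the labels.

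Depth overlapped between groups, at 17815568 to 20352675 counts per fibrotic library and 18275320 to 24814263 per FLO library. Mitochondrial genes took 4.93 to 7.88% of each fibrotic library and 7.30 to 10.2% of each FLO library. FLO replicate 3 held 3773 counts of Xist and 4 of Ddx3y, where the other 11 libraries held 0 to 4 and 556 to 977, against the stated male sex. It was kept in its group, and calls that changed without it are named. The hepatocyte markers Alb, Apoa1, Fgb and 2 others summed to 52468 to 84326 CPM (counts divided by library size after TMM scaling) in fibrotic libraries. In FLO libraries they summed to 70843 to 86121 CPM, so the markers of the labelled tissue were abundant in all 12. Most of the sum was Alb. Apoa1 was lower in fibrotic libraries, at 590 to 947 CPM against 1847 to 3561 CPM. Fgb was higher, at 2445 to 4345 CPM against 1530 to 2025 CPM. Alb, Apob and Ttr overlapped between groups.

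Short stretches of the promoters of 4 genes are shown first, since they carry the ISRE letters of the genes with the largest changes among those that hold them. They are RefSeq sequence of GRCm38.p6, read 5′ to 3′ on the strand of the gene, with the letters that match the ISRE core (GAAA, 2 bases of any kind, GAAA) or its reverse complement in capitals.
Oas3, chr5:120777715-120777764, minus strand: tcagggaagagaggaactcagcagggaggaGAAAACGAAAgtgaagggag
Isg15, chr4:156200865-156200926, minus strand: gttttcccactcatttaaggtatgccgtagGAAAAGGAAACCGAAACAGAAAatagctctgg
Rsad2, chr12:26456553-26456602, minus strand: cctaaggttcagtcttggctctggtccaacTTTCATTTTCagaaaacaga
Gbp2, chr3:142620574-142620623, plus strand: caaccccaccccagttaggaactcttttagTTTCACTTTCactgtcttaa
The Isg15 stretch held 3 overlapping matches and the others 1 each. The stretches of Oas3, Isg15 and Rsad2 overlapped no annotated exon in GENCODE M21, and that of Gbp2 overlapped 1.

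The first question was how many of these genes differed between fibrotic and FLO livers. Calls were made by the edgeR quasi-likelihood test over all 13416 genes and needed an adjusted p no higher than 0.01 together with a log2 fold change beyond 0.5 in either direction. Of the 33 genes, 10 were called higher in fibrotic livers, 2 were called lower and 21 were not called. Over all tested genes 29.9% were called, 15.9% higher and 14.0% lower. Since the list was chosen with earlier results of these data known, setting it beside all genes is a description, not a test. The median log2 fold change of the 33 genes was 0.43 beside 0.03 for all tested genes, and 25 of the 33 values were positive. The groups did not overlap in 6 genes that were higher (Oasl1, Isg15, Usp18, Zbp1, Irgm1 and Parp14) and in 1 that was lower (Gbp2), where 15.3% and 15.1% of all tested genes showed such a separation (30.4% in either direction). Without FLO replicate 1, 2 or 3 the counts were 6, 5 and 6 higher, each with 1 lower. At an adjusted p of 0.05 with no fold threshold, 16 of the 33 were higher and 3 lower, beside 27.3% and 24.8% of all tested genes.

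The sets were unlike in their counts, given beside 15.9% of all tested genes called higher and 14.0% lower. In the type I set 5 of 10 genes were called higher and 0 lower, with 9 positive values and a median log2 fold change of 0.78. In the interferon-gamma set 1 of 6 was called higher (Igtp) and 2 lower (Gbp2 and Gbp7), with 3 positive values and a median of -0.28. Among the other 17 genes 4 were called higher (Usp18, Zbp1, Rsad2 and Rtp4), 0 lower, and the median was 0.30. The difference between the sets was not tested. The type I count was 2 without FLO replicate 1 or 3 and 3 without fibrotic replicate 4 or FLO replicate 2 or 4.

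**Figure D1:**
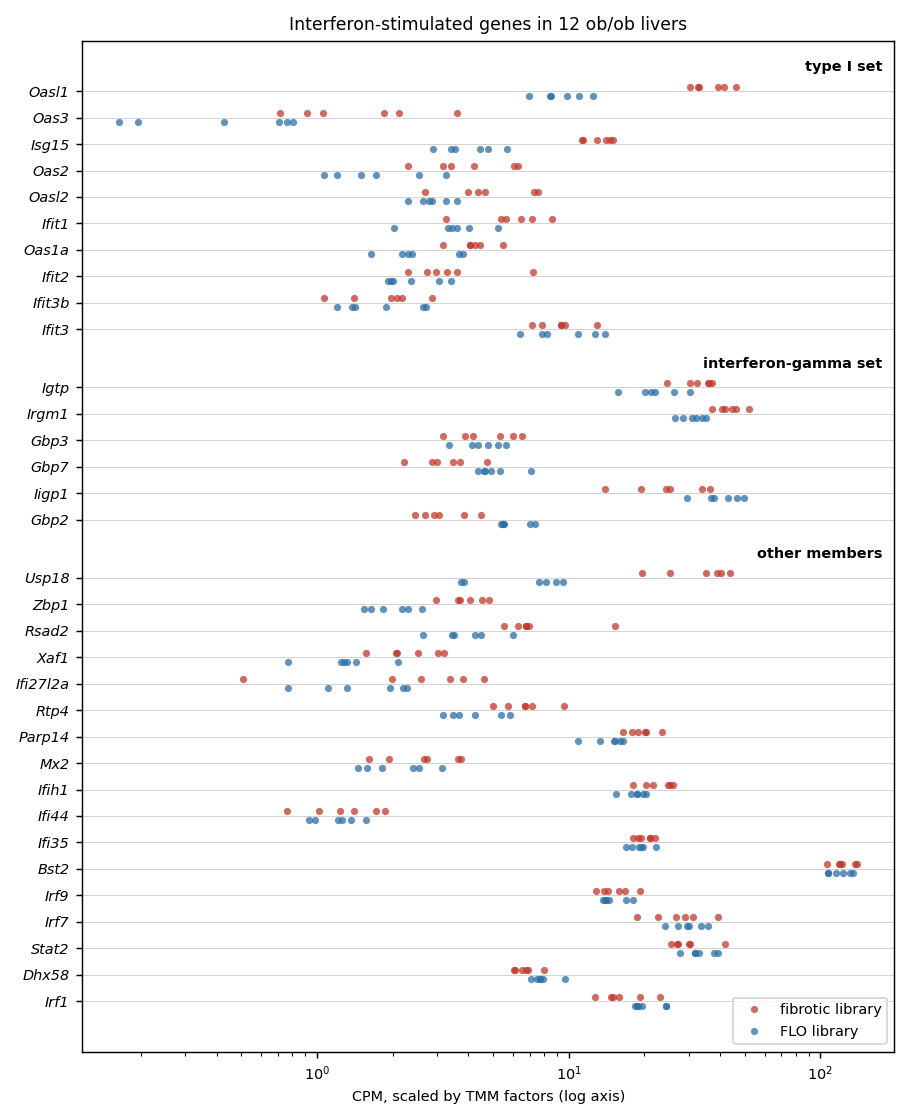
CPM of each of the 33 genes (log axis, scaled by TMM factors) in the 6 fibrotic libraries (red) and the 6 FLO libraries (blue), ordered by log2 fold change within each set. Oasl1, Isg15 and Usp18 show the widest gaps between groups, Gbp2 lies lower in all 6 fibrotic libraries, and most Ifit genes and transcription factors overlap.

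Isg15 and its protease were among the genes with the clearest separation. Isg15 (ENSMUSG00000035692), the ubiquitin-like protein that is joined to other proteins during interferon responses, had 11.3 CPM in the lowest, 13.5 in the median and 15.0 in the highest fibrotic library, and 2.90, 4.0 and 5.69 CPM in FLO libraries. The 6 fibrotic libraries all lay above the highest FLO library, and the log2 fold change was 1.68 (SE 0.15, edgeR adjusted p = 5.12e-07). Usp18 (ENSMUSG00000030107), which removes Isg15 from proteins and also restrains signalling at Ifnar2, had 19.6, 37.0 and 43.9 CPM in fibrotic libraries and 3.72, 7.90 and 9.50 CPM in FLO libraries. Its log2 fold change of 2.28 (SE 0.27, edgeR adjusted p = 1.02e-05) was the highest of the 33. The lowest fibrotic library of Usp18, replicate 1, still held more than the highest FLO library.

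Of the 5 Oas genes on the list 4 were called higher, beside 15.9% of all tested genes. A further 3 that were tested, Oas1b (-0.36), Oas1c (0.84) and Oas1g (1.28), were not called. Oasl1 (ENSMUSG00000041827), an Oas-like protein without synthetase activity that limits Irf7 translation, had 30.5, 36.0 and 46.3 CPM in fibrotic libraries and 6.96, 9.15 and 12.5 CPM in FLO libraries. Its groups stood far apart, with a log2 fold change of 1.96 (SE 0.14, edgeR adjusted p = 6.56e-08), while Irf7 itself had a value of -0.11 and was not called. Oas3, the synthetase with the most repeated domains, was low, at 0.713, 1.45 and 3.6 CPM in fibrotic libraries and 0.164, 0.569 and 0.804 CPM in FLO libraries. The Oas3 groups overlapped by 1 library, fibrotic replicate 2, and the log2 fold change was 1.75 (SE 0.45, edgeR adjusted p = 0.00454) on counts of 3 to 77 per library.

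Oas2, a further synthetase, had 2.29, 3.81 and 6.30 CPM in fibrotic and 1.07, 1.60 and 3.26 CPM in FLO libraries. Of the fibrotic libraries 4 lay above every FLO library, and the log2 fold change was 1.19 (SE 0.30, edgeR adjusted p = 0.00416). Oasl2, an Oas-like protein that retains activity, had 2.7, 4.51 and 7.58 CPM in fibrotic and 2.30, 2.83 and 3.61 CPM in FLO libraries. Its log2 fold change was 0.81 (SE 0.23, edgeR adjusted p = 0.00761), with fibrotic replicate 2 inside the FLO range. Oas1a had 3.16, 4.17 and 5.48 CPM in fibrotic and 1.64, 2.35 and 3.81 CPM in FLO libraries. It was not called, at a log2 fold change of 0.67 (95% interval 0.23 to 1.11, adjusted p = 0.0130), but was called without fibrotic replicate 2 or FLO replicate 5 or 6.

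The calls of Oas2, Oas3 and Oasl2 could each be lost by leaving out 1 library, through the adjusted p. Their log2 fold changes stayed at 1.04 to 1.40, 1.40 to 1.92 and 0.67 to 0.94 when 1 library was left out. Oas2 was not called without fibrotic replicate 1 or FLO replicate 1, 2, 3 or 4 (adjusted p up to 0.0120), and Oas3 was not called without fibrotic replicate 4 or 6 or FLO replicate 1, 3 or 4 (up to 0.0121). Oasl2 kept its call only without fibrotic replicate 2, 3 or 6 or FLO replicate 5, with adjusted p up to 0.0202 in the other 8 cases. Oas1a shares 57.6% of its 50-base stretches with Oas1g, so the reads of these copies may have been split. With the counts of Oas1a and Oas1g summed, an alternative chosen after seeing the data, the log2 fold change was 0.85 (SE 0.23, edgeR adjusted p = 0.00533), past both thresholds.

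The Ifit genes did not pass the test. Ifit1, which binds RNA that lacks a methylated cap, had 3.25, 6.07 and 8.56 CPM in fibrotic and 2.02, 3.52 and 5.24 CPM in FLO libraries. Of its fibrotic libraries 5 lay above every FLO library, and the log2 fold change was 0.75 (95% interval 0.26 to 1.24, adjusted p = 0.0127). It was called without fibrotic replicate 1 (0.88) or FLO replicate 4 (0.89). Ifit2, a partner of Ifit1 in RNA binding, had 2.29, 3.13 and 7.25 CPM in fibrotic and 1.91, 2.19 and 3.43 CPM in FLO libraries. The highest value, that of fibrotic replicate 4, stood well above the rest, and the log2 fold change was 0.59 (95% interval 0.02 to 1.16, adjusted p = 0.0786). Without that library it was 0.28 (adjusted p = 0.250).

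Ifit3, which stabilises Ifit1, had 7.18, 9.34 and 12.9 CPM in fibrotic and 6.40, 9.54 and 13.9 CPM in FLO libraries. The groups of Ifit3 lay on top of each other, with a log2 fold change of -0.09 (95% interval -0.49 to 0.31). Its near copy Ifit3b had 1.07, 2.02 and 2.85 CPM in fibrotic and 1.2, 1.65 and 2.72 CPM in FLO libraries, a log2 fold change of 0.04 (95% interval -0.53 to 0.62). Ifit3 shares 51.2% of its 50-base stretches with Ifit3b, and their summed counts gave a log2 fold change of -0.07 (SE 0.20, edgeR adjusted p = 0.791). The type I set was thus not uniform: Isg15 and Oasl1 separated the groups while the Ifit3 pair overlapped.

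**Figure D2:**
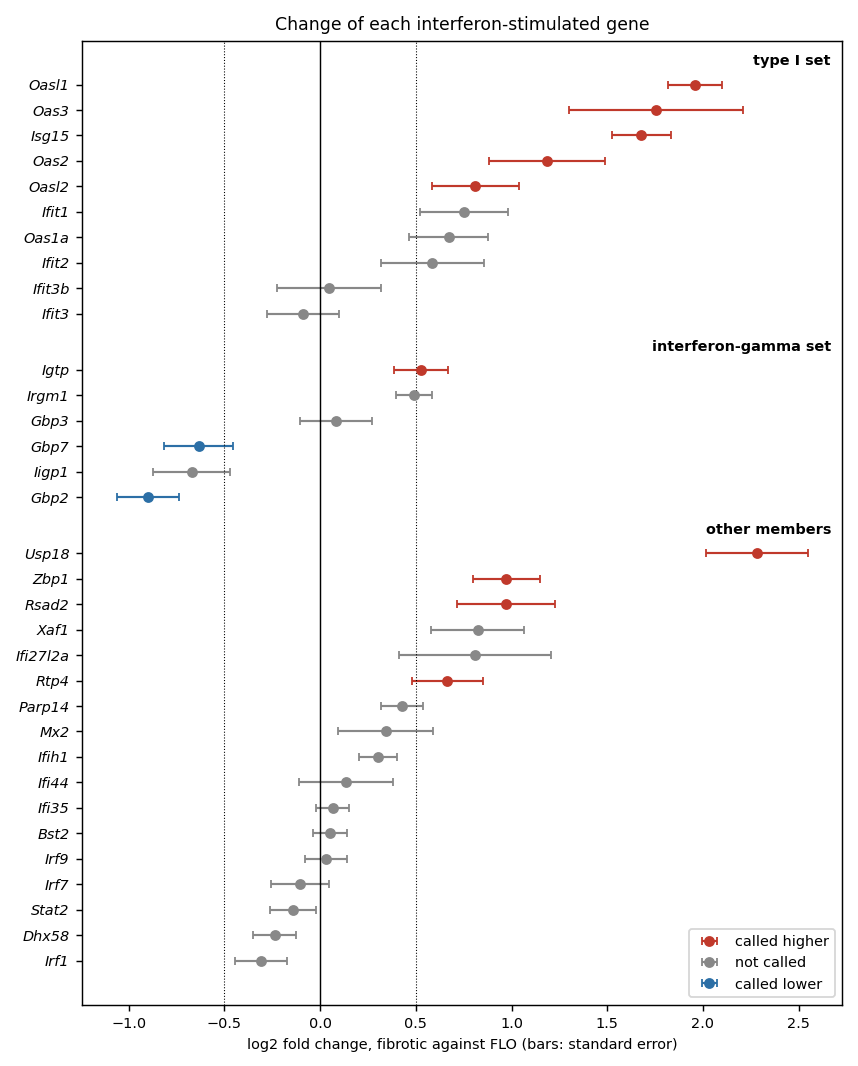
Log2 fold change (fibrotic against FLO) of each of the 33 genes with its standard error as a bar. Red marks genes called higher, blue called lower and grey not called, and dotted lines mark the fold threshold of 0.5. The called genes run from -0.90 for Gbp2 to 2.28 for Usp18.

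The interferon-gamma set held genes called in both directions. Gbp2 (ENSMUSG00000028270), a guanylate-binding protein that coats microbial vacuoles, had 2.45, 2.99 and 4.51 CPM in fibrotic and 5.38, 5.52 and 7.36 CPM in FLO libraries. The 6 fibrotic libraries all lay below the lowest FLO library, and the log2 fold change was -0.90 (SE 0.16, edgeR adjusted p = 0.000297). Gbp7, another guanylate-binding protein, had 2.22, 3.24 and 4.74 CPM in fibrotic and 4.37, 4.78 and 7.06 CPM in FLO libraries. Of the fibrotic libraries 5 lay below every FLO library, and the log2 fold change was -0.64 (SE 0.18, edgeR adjusted p = 0.00841). The call of Gbp7 held only without fibrotic replicate 3 or FLO replicate 6, and the other 10 omissions gave an adjusted p up to 0.0239, that without FLO replicate 3. Gbp3 overlapped fully, at 3.17, 4.75 and 6.5 CPM in fibrotic and 3.34, 4.58 and 5.63 CPM in FLO libraries and a log2 fold change of 0.08 (95% interval -0.31 to 0.48).

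The immunity-related GTPases were split as well. Igtp, a regulator of the other GTPases, had 24.5, 34.1 and 37.0 CPM in fibrotic and 15.7, 21.7 and 30.3 CPM in FLO libraries. Fibrotic values were mostly higher with some overlap, and the log2 fold change was 0.53 (SE 0.14, edgeR adjusted p = 0.00544), just past the fold threshold. The call held only without fibrotic replicate 2 or 4 or FLO replicate 1 or 3. Irgm1, a second regulator of the family, had 37.0, 43.1 and 52.1 CPM in fibrotic and 26.6, 31.4 and 35.0 CPM in FLO libraries. Its groups did not overlap and the adjusted p was 0.000426, but the log2 fold change of 0.49 (SE 0.09) was just under the fold threshold, which it passed without fibrotic replicate 1, 2 or 5 or FLO replicate 1 or 3. Iigp1, an effector GTPase that the Irgm proteins regulate, had 14.0, 24.9 and 36.3 CPM in fibrotic and 29.5, 40.4 and 49.6 CPM in FLO libraries. It was not called, at a log2 fold change of -0.67 (95% interval -1.10 to -0.24, adjusted p = 0.0124), though all 6 fibrotic libraries lay under the FLO median, and it was called without fibrotic replicate 3 or 4 or FLO replicate 6.

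Of the factors that carry the interferon signal to DNA, none of the 4 on the list was called, beside 29.9% of all tested genes. Stat2 and Irf9, members of the type I complex, had log2 fold changes of -0.14 (95% interval -0.40 to 0.11) and 0.03 (95% interval -0.21 to 0.27). Irf7, the amplifier of interferon-alpha transcription, had 18.6 to 39.1 CPM in fibrotic and 24.2 to 35.7 CPM in FLO libraries. Irf1, the early factor of the interferon-gamma response, had 12.7 to 23.0 CPM in fibrotic and 18.4 to 24.4 CPM in FLO libraries, a log2 fold change of -0.31 (95% interval -0.60 to -0.02, adjusted p = 0.0690). Fibrotic and FLO livers overlapped for each of the 4, and 3 of the 4 values were negative.

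Among the 3 nucleic acid sensors on the list, Zbp1, which binds left-handed double helices and can start necroptosis, was called higher. Of all tested genes, 15.9% were called higher. Zbp1 (ENSMUSG00000027514) had 2.96, 3.90 and 4.81 CPM in fibrotic and 1.54, 2.01 and 2.61 CPM in FLO libraries. The groups did not overlap, and the log2 fold change was 0.97 (SE 0.18, edgeR adjusted p = 0.000274). Ifih1, the MDA5 sensor of long double-stranded RNA, had a log2 fold change of 0.30 (SE 0.10, edgeR adjusted p = 0.0203) and Dhx58, the regulator LGP2, one of -0.24 (SE 0.11, edgeR adjusted p = 0.0823). Neither was called.

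Among the 9 effectors, 2 were called, both higher, beside 15.9% of all tested genes called higher. Rsad2, the viperin enzyme that makes a chain-terminating nucleotide, had 5.53, 6.77 and 15.3 CPM in fibrotic and 2.65, 3.88 and 6.02 CPM in FLO libraries. The highest value belonged to fibrotic replicate 4, and fibrotic replicate 1 lay inside the FLO range. The log2 fold change of Rsad2 was 0.97 (SE 0.26, edgeR adjusted p = 0.00511), and the call was lost without FLO replicate 1, 2 or 3, with adjusted p up to 0.0133. Rtp4, a chaperone of membrane receptors that dampens the interferon response, had 4.99, 6.69 and 9.62 CPM in fibrotic and 3.17, 3.96 and 5.83 CPM in FLO libraries. Its log2 fold change was 0.67 (SE 0.18, edgeR adjusted p = 0.00706), and the call held only without fibrotic replicate 1 or 2 or FLO replicate 4 or 6.

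The other 7 effectors were not called. Xaf1, a promoter of apoptosis, came close at a log2 fold change of 0.82 (95% interval 0.30 to 1.34, adjusted p = 0.0104), and was called without fibrotic replicate 3 or FLO replicate 4. Parp14, an ADP-ribosyltransferase, separated the groups at 16.5 to 23.5 CPM against 10.9 to 16.4 CPM, with an adjusted p of 0.00458 and a log2 fold change of 0.43 (SE 0.11) under the fold threshold. Ifi27l2a, a small mitochondrial protein, had a log2 fold change of 0.81 with a wide 95% interval of -0.04 to 1.66. In that gene fibrotic replicate 2 held 0.509 CPM, under every FLO library, while 4 fibrotic libraries lay above every FLO library, and without replicate 2 the log2 fold change was 1.03 (adjusted p = 0.00825). Bst2, the tether that holds budding virus at the cell surface, had the most counts of the list, at 106 to 140 CPM in fibrotic and 107 to 135 CPM in FLO libraries (95% interval of the log2 fold change -0.14 to 0.24). Mx2, Ifi35 and Ifi44 had log2 fold changes of 0.34, 0.06 and 0.13, with overlapping groups in each.

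Fibrotic livers differed among themselves in the type I set. With each gene expressed as log2 CPM less its FLO mean, the average over the 10 genes ran from 0.386 in fibrotic replicate 2 to 1.43 in fibrotic replicate 4, and from -0.524 in FLO replicate 1 to 0.355 in FLO replicate 5. The groups did not overlap on that average. Replicate 4 was the highest fibrotic library in 7 of the 10 genes and replicate 2 the lowest in 8 of the 10. The average over the interferon-gamma set overlapped, at -0.401 to 0.0590 in fibrotic and -0.203 to 0.248 in FLO libraries. These averages describe the libraries and were not tested.

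Some macrophage markers were called higher beside the type I set. Of all tested genes, 15.9% were called higher. In whole liver, more cells of a type and more RNA per cell cannot be told apart. Of 7 Kupffer cell markers, 4 were called higher (Clec4f, Vsig4, Cd5l and Marco), and the 7 together summed to 195 to 356 CPM in fibrotic and 145 to 198 CPM in FLO libraries. Fibrotic replicate 4 had the highest Kupffer cell sum and replicate 2 the lowest, the same extremes as in the type I average, but FLO replicate 1, lowest in that average, had 173 CPM, inside the FLO range. Timd4 (log2 fold change 0.35), Folr2 and C6 (-0.20) were not called. Macrophage and monocyte markers summed to 77.0 to 206 CPM in fibrotic and 65.0 to 86.4 CPM in FLO libraries, with 2 of 7 tested called higher (Adgre1 and Csf1r). Tested markers of recruited monocytes and their progeny were not called, among them Ccr2 (0.44), Itgam (0.22), Gpnmb (0.48) and Trem2 (1.01). Ly6c2 was under the low-count filter and was not tested, with 89 counts over all fibrotic and 22 over all FLO libraries. Of its 6 fibrotic libraries 5 lay above every FLO library. The part of macrophages and monocytes in the result was not tested.

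Markers of plasmacytoid dendritic cells and of T, NK and B cells were scarce. The 5 plasmacytoid dendritic cell markers all fell under the low-count filter and summed to 0.323 to 1.06 CPM in fibrotic and 0.0547 to 6.20 CPM in FLO libraries. Siglech, which defines these cells, had 13 counts over all fibrotic and 4 over all FLO libraries, and most of the FLO counts were of Cox6a2 (190). Of 13 T and NK cell markers 2 were tested and 0 called, and the sums were 2.99 to 8.15 CPM in fibrotic and 2.46 to 8.35 CPM in FLO libraries. No B cell marker passed the filter, with sums of 0.608 to 1.72 and 0.355 to 1.81 CPM. Of 5 neutrophil markers 2 were tested and 1 (Csf3r) was called higher, with sums of 2.96 to 7.21 and 1.64 to 5.94 CPM, while Ly6g had 7 counts over all fibrotic and 0 over all FLO libraries. Of 5 cholangiocyte markers 3 were called higher, at sums of 80.6 to 273 CPM in fibrotic and 47.0 to 87.9 CPM in FLO libraries, and of 6 endothelial markers 1 (Kdr) was called lower, at 118 to 163 and 164 to 189 CPM. Beside these counts, 15.9% of all tested genes were called higher and 14.0% lower. The part of these cell types in the result was not tested.

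**Figure D3:**
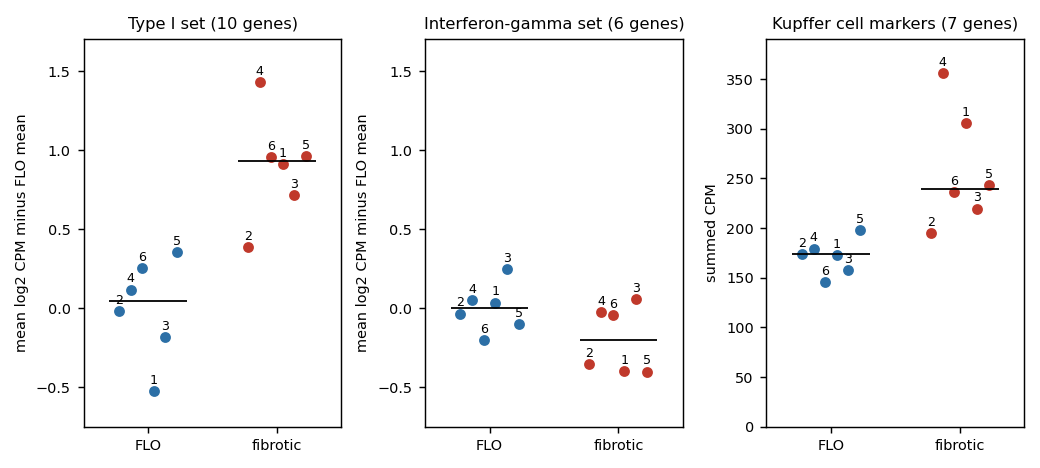
Average log2 CPM less the FLO mean over the type I set (left) and the interferon-gamma set (middle), and summed CPM of 7 Kupffer cell markers (right), for each FLO (blue) and fibrotic (red) library, with replicate numbers beside the points and bars at the medians. Fibrotic replicate 4 is highest and replicate 2 lowest among fibrotic libraries in the left and right panels, and the gamma panel overlaps.

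The rest of the pathway was read from lists of interferons, receptors, sensors, brakes and further targets. Of the 21 interferon genes in the table, 18 had 0 counts in all 12 libraries, Ifng among them. Ifnb1 had 1 count, in 1 fibrotic library. None could enter the fit, and a count of 0 allows up to 3 counts, or 0.128 to 0.177 CPM depending on the library, so lower levels were not detectable at this depth.

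Among 8 tested receptor and Janus kinase genes, 1 was called higher and 1 lower, which is no more than the 29.9% called over all genes. Ifnar2, the chain that binds type I interferon most tightly, had 36.5, 39.7 and 44.1 CPM in fibrotic and 61.2, 65.4 and 72.5 CPM in FLO libraries. The groups did not overlap, and the log2 fold change was -0.74 (SE 0.07, edgeR adjusted p = 5.66e-07). Ifngr2, the signalling chain of the interferon-gamma receptor, had 24.4, 33.6 and 37.8 CPM in fibrotic and 17.6, 20.6 and 25.7 CPM in FLO libraries, a log2 fold change of 0.66 (SE 0.11, edgeR adjusted p = 0.000185). Of its 6 fibrotic libraries 5 lay above every FLO library. Ifnar1 and Ifngr1 were not called, at log2 fold changes of 0.27 and 0.34 and adjusted p of 0.0260 and 0.0282.

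Ifnlr1, the receptor chain for type III interferon, fell under the low-count filter. It was higher in 6 of 6 fibrotic libraries by 1.37 in mean log2 CPM (two-sided exact permutation test, p = 0.00216, the smallest p that 6 against 6 allow, adjusted over 6 genes 0.0130).

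Among 19 tested sensors and adaptors, 3 were called higher and 2 lower, near the 15.9% and 14.0% of all tested genes. Tlr7 and Tlr3, endosomal sensors of single-stranded and double-stranded RNA, had log2 fold changes of 1.22 (SE 0.29, edgeR adjusted p = 0.00218) and 0.84 (SE 0.19, edgeR adjusted p = 0.00172). Samhd1, which breaks down deoxynucleotides, had a log2 fold change of 0.54 and did not overlap between groups. Rnaseh2a, a subunit of the enzyme that removes RNA from DNA, and Ikbke, a kinase that activates Irf3, were lower, at -0.76 and -0.61. Of 6 tested brakes on signalling, Ptpn2, a phosphatase of Janus kinases, was higher (0.60) and Irf2, a repressor at ISRE sequences, lower at 14.1 to 24.9 CPM against 34.0 to 45.3 CPM (log2 fold change -0.96, SE 0.12, edgeR adjusted p = 1.15e-05).

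Of 77 tested interferon targets outside the 33 genes, 22 were called, near the 29.9% called over all tested genes. Of these 17 were higher and 5 lower, beside 15.9% and 14.0% of all tested genes. The split thus leaned to higher more than in all genes, which was not tested. The median log2 fold change of the 77 was 0.18. Targets usually assigned to type I interferon gave 12 higher and 4 lower of 49 tested, against the same shares. Cmpk2, a mitochondrial nucleotide kinase beside Rsad2 on the chromosome, had 6.52, 14.2 and 17.1 CPM in fibrotic and 3.04, 3.86 and 4.60 CPM in FLO libraries. The groups did not overlap (log2 fold change 1.73, SE 0.21, edgeR adjusted p = 9.37e-06). Daxx, a chaperone of histone H3 variants, Lgals3bp, a secreted galectin ligand, and Parp10, an ADP-ribosyltransferase, had log2 fold changes of 1.14, 0.98 and 0.97. Among lower genes, Ifi27, a mitochondrial and nuclear membrane protein, had -0.96, Lap3, an aminopeptidase, -0.64, and Trafd1, a feedback regulator of Toll-like receptor signalling, -0.54.

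Apol9a (1.80) and Apol9b (-0.71) were called in opposite directions. Apol9b shares 52.3% of its 50-base stretches with Apol9a, and Apol9a 16.5% of its own with Apol9b. Their summed counts gave a log2 fold change of 0.44 (SE 0.10, edgeR adjusted p = 0.00194), under the fold threshold. Apol9a had 48.3 to 64.4 CPM in fibrotic and 14.1 to 19.9 CPM in FLO libraries. How reads were split between the copies is not known, which leaves the direction of Apol9b uncertain most of all.

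Targets usually assigned to interferon-gamma gave 5 higher and 1 lower of 28 tested, against 15.9% and 14.0% of all tested genes. Tap2 and Psmb8, which supply and cut peptides for MHC class I, had log2 fold changes of 0.76 and 0.71, Irgm2, a further regulatory GTPase, 0.97, and Irf8, a factor of myeloid cells, 0.58. Gbp11 was higher at 1.87 and Gbp10 lower at -1.41, but Gbp10 shares 84.1% and Gbp11 19.2% of its 50-base stretches with other genes, most often with Gbp6 (73.3%) and Gbp8 (9.57%). Across the 33 genes and these targets, the Gbp family therefore held values of either sign.

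**Figure D4:**
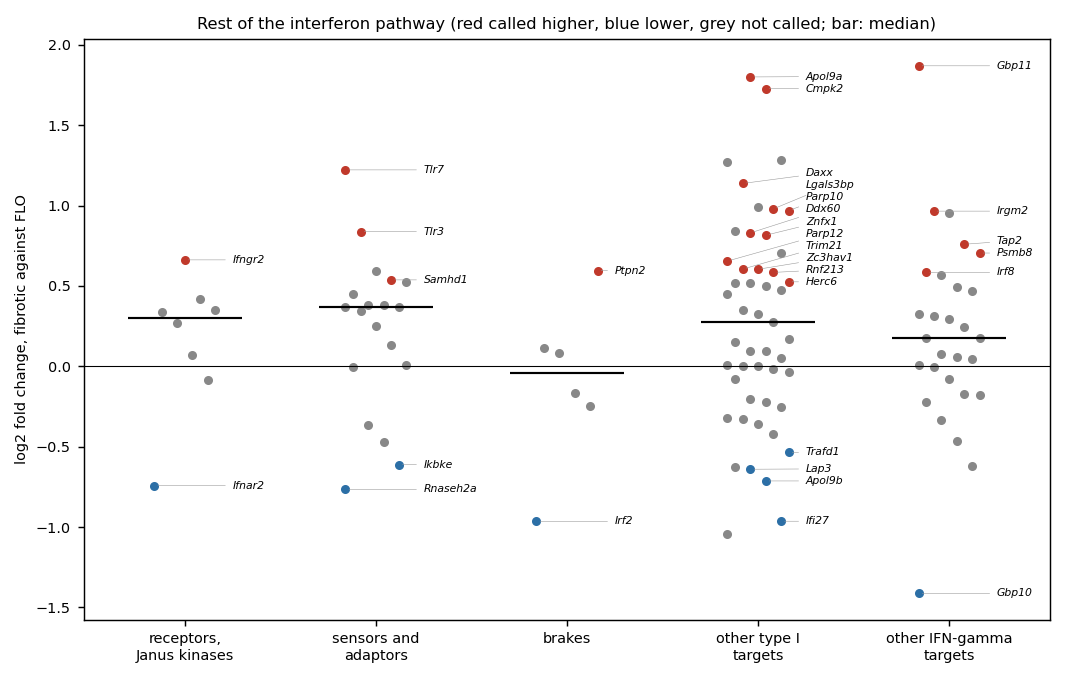
Log2 fold change of tested genes in 5 lists of the interferon pathway outside the 33 genes, with bars at the medians. Red marks genes called higher, blue called lower and grey not called, and called genes are named. Called genes lie on both sides of 0 in every list, from -1.41 for Gbp10 to 1.87 for Gbp11.

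The promoter sequences gave a further description of the genes. A window from 250 bases before to 50 after the RefSeq start site was on hand for 24 of the 33 genes. The ISRE letters, GAAA, 2 bases of any kind and GAAA, searched on both strands, were in the windows of 15 of the 24, beside 3.44% of 32851 windows over all genes. The GAS letters TTCNNNGAA, which read the same on both strands, were in 7 of 24, beside 8.30% of all windows, and 4 of the 24 genes held both. ISRE letters were in 6 of 9 type I genes, 5 of 5 interferon-gamma genes and 4 of 10 others.

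Holding the letters did not sort the genes by direction. They were in 4 of 6 genes called higher, 2 of 2 called lower (Gbp2 and Gbp7) and 9 of 16 not called, and the median log2 fold change was 0.30 with them and 0.13 without. Oasl1, the called gene with the smallest adjusted p of the 33, held neither motif in its window, whereas Ifit3 and Ifit3b each held 2 ISRE matches and were not called. A match is a description of letters, not a site of binding, and its absence says only that these letters are not in this window.

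**Figure D5:**
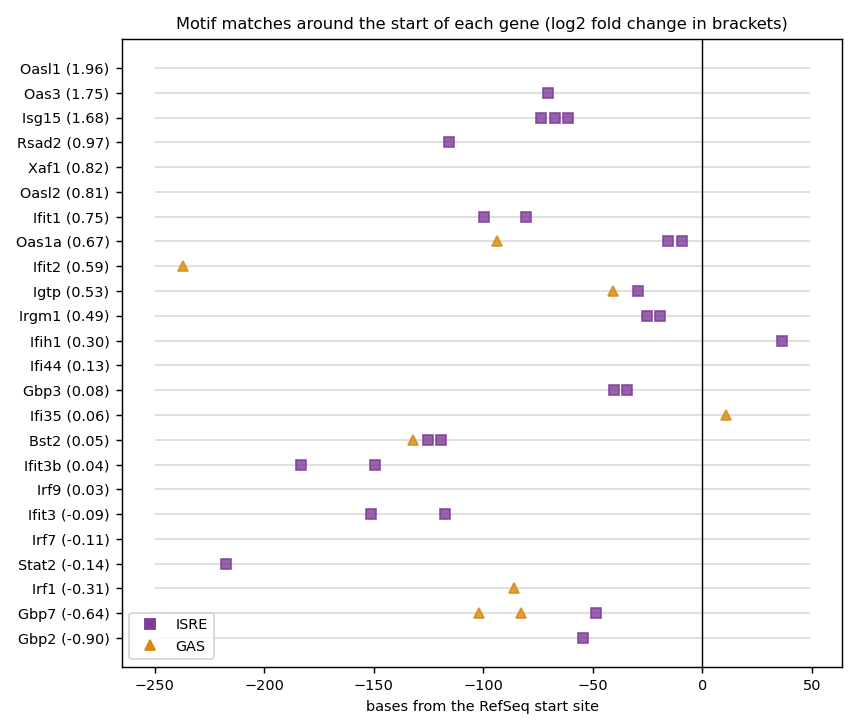
Positions of ISRE letters (purple squares) and GAS letters (orange triangles) in bases from the RefSeq start site, in the windows of 24 genes ordered by log2 fold change, which is given in brackets. Genes with ISRE letters lie along the whole range, from Oas3 at 1.75 to Gbp2 at -0.90.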

How the data were processed

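Poly(A) libraries from whole liver were compared, 6 OBOB_Fibrotic against 6 OBOB_FLO, 1 per mouse. The authors deposited 1 table of raw counts per Ensembl gene, without normalization. The submitters' processing notes name bcl2fastq, STAR 2.7.3a and mm10, and the mouse annotation and strand setting are not given in the sources used here, so reads of antisense or overlapping genes cannot be told apart. A table of gene names gave symbols for 51745 identifiers. Groups and replicate numbers came from the sample titles.

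Counts were tested in R 4.3.3 with edgeR 4.0.16 (quasi-likelihood, robust fit, TMM, filterByExpr), with Benjamini-Hochberg adjustment over 13416 genes and the study's thresholds, adjusted p of 0.01 and log2 fold change of 0.5. CPM used TMM library sizes, and log2 CPM a prior count of 2. SE is the absolute log2 fold change over the square root of F, and p-values weigh the group difference against the spread between mice. Depth was 17815568 to 24814263 counts, and SDs between libraries include counting error. Libraries of a group differed beyond sampling noise in every pair (smallest chi-square per degree of freedom 10.7). The fit was tested on simulated data in which far fewer genes changed than were called here, so a change of that breadth was not covered.

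The genes and all lists were chosen with earlier results of these data known. The lowest, median and highest library are given for both sets and every called gene of the 33. From other lists, called genes with mean log2 CPM of at least 0 are named, up to 5 per direction, mostly by log2 fold change alone, besides the receptors, markers and near-identical copies that bear on a result. Shared sequence is the share of 50-base stretches of GENCODE M21 transcripts found in another gene. Promoters are RefSeq, GRCm38.p6. Of 28 windows for these genes, 24 had their transcribed end inside a GENCODE M21 transcript of the same strand. Alternatives were RLE and upper quartile factors, no filter, at least 10 counts in every library, DESeq2 1.42.0, limma-voom (limma 3.58.1), a replicate block, an adjusted p of 0.05 without a fold threshold, and leaving out each library. Summing near-identical copies was added after the data were seen. No protein comparison was made. A gene of the signalling list is not reported here.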

Additional observations from a re-analysis of the deposited data

Results flagged for a closer look

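Each group of 6 libraries was searched for a highest or lowest library whose gap to its neighbour exceeded Dixon's 95% limit as a share of the group's range. Gaps and ranges were taken on log2 CPM, while the levels below are given in CPM. Of 70 values tested 3 passed, where chance gives 3.5. Rsad2 in fibrotic replicate 4 stood at 15.3 CPM above a next value of 6.99 CPM, a gap of 0.772 of the range. Stat2 in fibrotic replicate 1 stood at 41.7 CPM above 30.5 CPM, a gap of 0.641 of the range. Dhx58 in FLO replicate 4 stood at 9.69 CPM above 7.94 CPM, a gap of 0.646 of the range.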

How the results depend on the processing

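Of the 12 called genes, 5 (Oasl1, Isg15, Usp18, Zbp1 and Gbp2) kept their call under all 20 alternatives, and 13 of the 21 uncalled genes were called under none. Leaving out 1 library gave 5 to 13 genes called higher and 1 to 3 lower, 2 to 6 higher in the type I set, and 0 to 2 higher and 1 to 3 lower in the interferon-gamma set. The lowest count, 5 higher, came without FLO replicate 2, and the type I set fell to 2 without FLO replicate 1 or 3. An adjusted p of 0.05 without a fold threshold gave 16 higher of the 33 (27.3% of all genes were then higher and 24.8% lower), 2 higher in the interferon-gamma set, 11 lower among other targets and 6994 calls over all genes. Without the low-count filter 1 gene was lower, in the list and in the interferon-gamma set, since Gbp7 had an adjusted p of 0.01004. Signs reversed only in uncalled genes near 0. Leaving out 1 library gave -0.19 to 0.023 for Ifit3 (positive without FLO replicate 5), -0.093 to 0.17 for Ifit3b (negative without fibrotic replicate 4, and -0.055, -0.030 and -0.030 without FLO replicates 1, 2 and 3), -0.011 to 0.19 for Gbp3 (negative without fibrotic replicate 4) and -0.033 to 0.085 for Irf9 (negative without fibrotic replicate 4, and -0.0012 without FLO replicate 4). Summed with Ifit3, Ifit3b had -0.068. DESeq2 gave 13 higher and 3 lower, limma-voom 10 and 3. Upper quartile factors ended the calls of Oasl2 and Rtp4. The median of all genes was 0.03 with TMM, 0.004 with RLE and -0.002 with upper quartile factors. The cause of these changes was not tested.

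Replicate numbers were shared between groups, but same-numbered libraries correlated at -0.162 to 0.104 over 13416 genes. These values gave no sign that the numbers pair the mice, but cannot exclude a weak pairing. With the replicate block 9 genes were higher and 3 lower, and 3780 genes were called in all. Oas3 (adjusted p = 0.0237) and Oasl2 (0.0116) lost their calls under the block, Ifit1 and Iigp1 gained one, and it changed no other call of the 33. Counts of 3 to 77 limit Oas3, and 18 of 21 interferon genes had no count.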

Other observations

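Levels per length put the list in another order. As CPM per kilobase of the longest transcript, Bst2 was highest in both groups (157 in fibrotic and 151 in FLO livers), followed in fibrotic livers by Usp18 (19.1, against 3.93 in FLO), Isg15 (17.5 against 5.46), Oasl1 (17.03 against 4.37) and Igtp (16.2 against 11.2). Oas3 was lowest in both groups, at 0.362 and 0.108. Usp18 lay below Ifi35 (14.1), Iigp1 (13.0) and Irgm1 (8.12) in FLO livers and above all of them in fibrotic livers.

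Ifnk, a type I interferon of skin, had 22 counts over the 6 fibrotic libraries and 1 over the 6 FLO libraries. Of the 22, 13 were in fibrotic replicate 4, and fibrotic replicate 3 had 0. The difference did not pass (two-sided exact permutation test, p = 0.0281, adjusted over 6 genes 0.0779).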
